A study of Mus musculus with 16 samples.

Results

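The transcripts described here encode the proteins of the cytosolic ribosome. They were chosen as the array probe sets whose only annotated gene symbol begins with Rpl, Rps or Rplp followed by a digit, or is Rpsa or Fau, without the Rps6k kinases and without symbols of pseudogenes or related sequences. This gave 107 of 45037 probe sets, or 51 of 18193 genes, of which 26 belong to the large subunit and 24 to the small subunit. The remaining gene, Rps19bp1, encodes a protein that binds Rps19 and is in neither subunit. A gene was represented by its probe set of highest mean log2 signal over the 16 arrays. Of the 51 genes, 44 are core ribosomal proteins, 22 in each subunit, and 6 are paralogs of core genes (Rpl3l, Rpl7l1, Rpl22l1, Rpl39l, Rps27l and Rps4l). Probe sets that list several symbols name 46 ribosomal protein genes, of which 31 are not members. The members thus do not cover the whole ribosome, and the comparisons of the subunits hold for the genes included.

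RNA was taken from MC/9 cells, a mouse mast cell line, and from the exosomes purified from its culture medium by filtration and ultracentrifugation. The groups were exosomes from cultures exposed to 125 µM H2O2 for 24 h (oxi exo), exosomes from normal cultures (norm exo), cells under H2O2 (oxi cell) and cells under normal conditions (norm cell), with 4 arrays in each group. The sample labels describe the cell arrays as cells that had received exosomes, whereas the methods of the study treat them as the cells that released exosomes, so the history of the cell samples is not settled here. The replicates are not stated to be separate cultures throughout, so p-values measure the spread between these arrays, which may be technical in part. Deviations of arrays with equal replicate number correlated at only -0.052 to 0.048 in the 4 comparisons. The pairs used below are therefore pairs by number and are not shown to be matched.

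Ribosomal proteins assemble with ribosomal RNA into a small subunit, which reads the mRNA, and a large subunit, which joins amino acids and guides the new chain through an exit tunnel. The mRNAs of most ribosomal proteins begin with a C and a run of pyrimidines, the terminal oligopyrimidine start, through which mTOR signalling controls their translation as a group. The proteins are made in matched amounts, and cells under stress commonly reduce their production.

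The starts of 6 genes on which the results turn are printed below, with 15 bases before and 15 bases from the annotated transcription start, 5′ to 3′ on the strand of the gene, from RefSeq on build GRCm38.p6. Capitals mark a C at or within 5 bases of the start together with the pyrimidines that follow it, where there are at least 4. Rps10, Rplp2 and Rpl35 are shown as genes whose transcripts fell in oxi exo, and Rpl7a as one that did not pass the test. Rpl4 and Rps28, whose transcripts fell as well, are shown as starts without a run that meets this rule. The Rpl4 window does open with a run of pyrimidines, but no C of it lies within 5 bases of the start.
Rps10 (chr17:27635230-27635259, minus strand): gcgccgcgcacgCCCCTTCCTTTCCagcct
Rplp2 (chr7:141447636-141447665, plus strand): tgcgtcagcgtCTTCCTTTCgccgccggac
Rpl35 (chr2:39005117-39005146, minus strand): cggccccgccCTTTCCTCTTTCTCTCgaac
Rpl7a (chr2:26910792-26910821, plus strand): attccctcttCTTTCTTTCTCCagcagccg
Rpl4 (chr9:64173372-64173401, plus strand): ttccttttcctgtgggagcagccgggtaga
Rps28 (chr17:33824548-33824577, minus strand): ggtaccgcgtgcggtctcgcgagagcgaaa
A promoter was matched for 45 of the 51 genes, and 21 of these (46.7%) had such a run, against 5718 of 27025 promoters of all genes (21.2%). Among the members whose transcripts were lower in oxi exo, 13 of 31 with a promoter had it (41.9%). The letters CCGGAA, the core bound by ETS factors, stood on either strand of the 300 bases from 250 before to 50 after the start in 28 of the 45 members (62.2%), against 16.7% of all promoters. Both are matches of letters and not measured sites, and these motifs can overlap in a start.

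The values are signal intensities that were scaled per array to a trimmed mean of 100. On the cell arrays nearly all of the members exceeded background, but some of them were dim. Background, taken on each array as the 95th percentile of 174 probe sets for genes of other tissues, averaged 284 in oxi exo and 259 in norm exo, and 13.3 in oxi cell and 16.4 in norm cell. Signals exceeded it on all 4 arrays for 35 of the 51 genes in oxi exo, 38 in norm exo, 47 in oxi cell and 47 in norm cell. Dim members included Rpl12, Rpl14 and Rpl39, at norm cell means of 125, 129 and 96.7, where the median member signal was 7028 to 7604. The mean of Rps16, at 0.778, was below background. The spiked hybridization controls were also 19.6-fold brighter in oxi exo than in oxi cell and 16.2-fold brighter in norm exo than in norm cell, so an exosome value set against a cell value depends on the scaling. The 3′ over 5′ ratio of the Gapdh controls, which rises as RNA is shortened, was 1.48 to 2.33 in oxi exo and 1.43 to 1.77 in norm exo, against 0.836 to 0.884 in oxi cell and 0.823 to 0.841 in norm cell. For the actin controls this ratio was 2.77 to 4.48 in oxi exo and 3.81 to 6.55 in norm exo, against 1.30 to 1.55 in oxi cell and 1.41 to 1.46 in norm cell. Of 8 mast cell marker genes, 0 in oxi exo, 5 in norm exo, 8 in oxi cell and 8 in norm cell exceeded background on all 4 arrays, and of 17 markers of other blood cells and of fibroblasts, 1 in oxi exo, 1 in norm exo, 3 in oxi cell and 2 in norm cell did.

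The first question was whether exosomes released under H2O2 carried another amount of these transcripts than exosomes from normal cultures. The signal of the ribosomal protein transcripts was lower in oxi exo. The 51 probe sets together held 1.54%, 1.54%, 1.38% and 0.800% of the summed signal of the 4 oxi exo arrays, against 3.50%, 3.71%, 2.65% and 3.04% on the norm exo arrays. Every oxi exo array was thus below every norm exo array, and replicate 4 of oxi exo was the lowest of the 16 arrays. By limma with Benjamini-Hochberg adjustment over all probe sets, 36 of the 51 genes were lower at an adjusted p under 0.05, where 2.25% of all genes were, and 0 were higher, where 0.022% of all genes were. At an unadjusted p under 0.05 the counts were 38 lower and 0 higher, where 1408 of all 18193 genes were lower and 651 higher. The median log2 difference of the 51 genes was -1.48, against 0.00 over all genes, and it was -1.32, -1.47, -0.97 and -1.99 in the 4 pairs of equal replicate number. Groups did not overlap for 39 genes that were lower (5.44% of all genes) and for 1 that was higher (2.37% of all genes). In bulk RNA of vesicles, fewer copies of a transcript per vesicle and a smaller share of vesicles that carry it cannot be told apart.

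**Figure D1:**
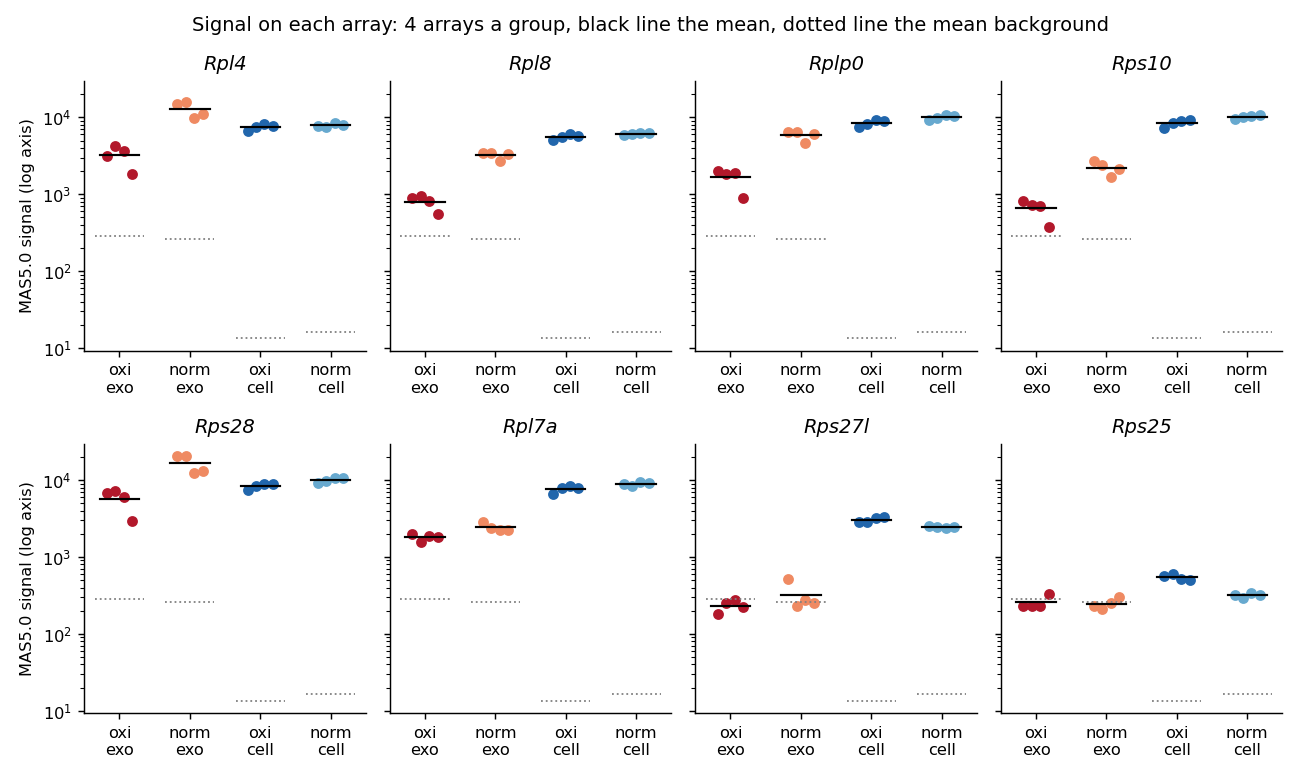
Signal intensity (log axis) of 8 ribosomal protein genes on each array, with oxi exo, norm exo, oxi cell and norm cell from left to right, a black line for the mean of 4 arrays and a dotted line for the mean background of the group. For Rpl4, Rpl8, Rplp0, Rps10 and Rps28 every oxi exo array lies below every norm exo array, for Rps27l and Rpl7a the cell arrays are far above the exosome arrays, and for Rps25 the oxi cell arrays lie above the norm cell arrays.

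Among proteins of the large subunit, Rpl4, which reaches into the exit tunnel, and Rpl8, which lies near the site of peptide bond formation, had the lowest differences. Rpl4 signals were 3186, 4229, 3658 and 1839 in oxi exo, against 14802, 15978, 9818 and 11091 in norm exo. The groups were far apart. The log2 difference was -2.04 ± 0.20 (SE, adjusted p = 0.000156), a 4.11-fold lower signal in oxi exo. Rpl8 signals were 888, 935, 815 and 552 in oxi exo, against 3431, 3450.0, 2690.2 and 3344 in norm exo, with a log2 difference of -2.04 ± 0.20 as well (adjusted p = 0.000156). Rpl41, a very small protein at the interface of the subunits, fell by 1.91 ± 0.26 on the log2 scale (adjusted p = 0.00056), and its lowest oxi exo array, replicate 4 at 233, was below background.

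The P stalk is the flexible arm of the large subunit that recruits elongation factors. Rplp0, its base, gave 1983, 1860.0, 1909.6 and 902 in oxi exo, against 6371, 6373, 4633 and 6165 in norm exo. Replicate 4 of oxi exo and replicate 3 of norm exo lay below the others of their groups, and the groups did not overlap (-1.88 ± 0.22 on the log2 scale, adjusted p = 0.00027). Rplp2, an acidic protein of the stalk, fell by 1.78 ± 0.19 on the log2 scale (adjusted p = 0.000186). Rpl12, which binds at the stalk base, was below background on all 8 exosome arrays and was not called. Along the exit tunnel and its rim, 4 of 5 genes were lower, with log2 differences of -2.04 for Rpl4, -1.53 for Rpl35, -1.51 for Rpl19 and -1.48 for Rpl38. The other gene of the tunnel, Rpl39, had a log2 difference of -0.37 (adjusted p = 0.677), by a probe set that was dim in cells (norm cell mean 96.7). Rpl11, which binds the 5S ribosomal RNA and can hold the p53 regulator Mdm2, was lower by a log2 difference of -1.50 (adjusted p = 0.00115).

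In the small subunit the called genes covered several regions of the particle. Rps10, on the head of the subunit, gave 823, 727, 693 and 379 in oxi exo, against 2672, 2426, 1667 and 2143 in norm exo, and every oxi exo array was lower than all norm exo arrays (log2 difference -1.80 ± 0.22, adjusted p = 0.000319). Rps14, a protein of the platform, had 2105, 1596, 1349 and 693 in oxi exo, against 5368, 6253, 3244 and 4329 in norm exo, again without overlap (-1.81 ± 0.22 on the log2 scale, adjusted p = 0.000319). All 4 genes of the mRNA channel and decoding side were lower, with log2 differences of -1.69 for Rps2, -1.68 for Rps3, -1.61 for Rps9 and -1.26 for Rps15. Rps28, near the exit of the mRNA channel, gave 6762, 7256, 5987 and 2913 in oxi exo, against 20362, 20564, 12404 and 13202 in norm exo. Its groups did not overlap either, and the log2 difference was -1.58 ± 0.20 (adjusted p = 0.000362). Fau, whose product is a ubiquitin-like protein fused to a ribosomal protein, had a log2 difference of -1.16 (adjusted p = 0.003).

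**Figure D2:**
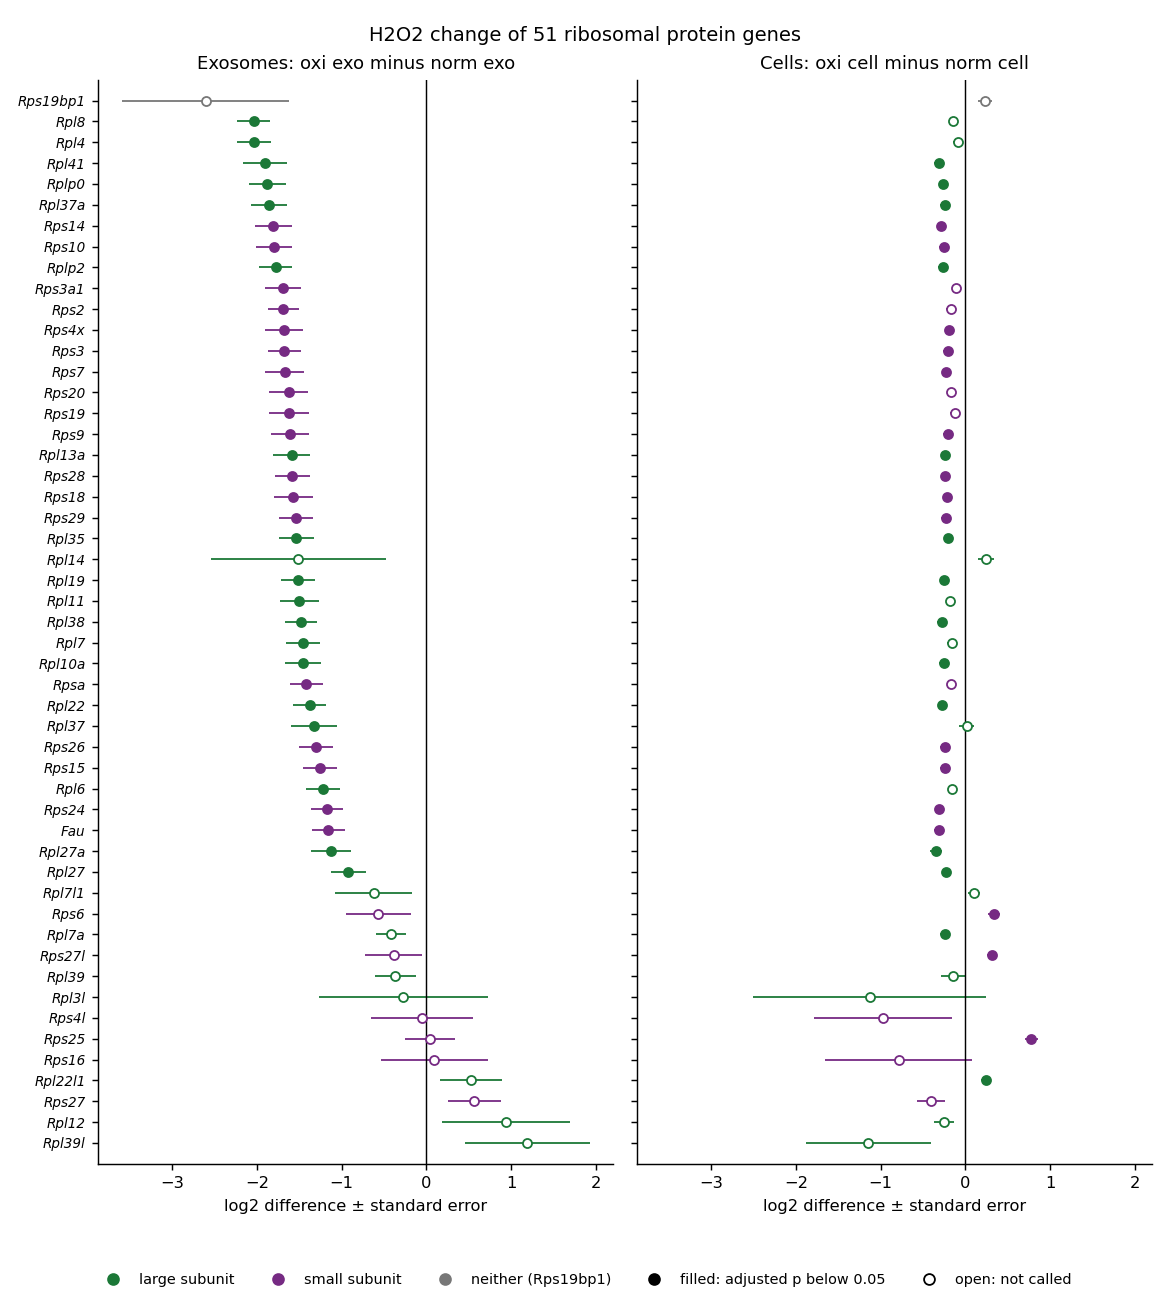
Log2 difference of each of the 51 genes with its SE, oxi exo minus norm exo on the left and oxi cell minus norm cell on the right, in green for the large subunit, purple for the small subunit and grey for Rps19bp1, filled where the adjusted p was under 0.05. In exosomes 36 genes are filled and all lie at -0.92 or below, and in cells 26 filled genes lie between -0.35 and -0.19 and 4 lie above 0.

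The called differences ran from -2.04 for Rpl4 and Rpl8 to -0.92 for Rpl27 (SE 0.21, adjusted p = 0.0287). All 36 called genes were core genes, and 0 of the 6 paralogs were called, but 5 of these were below background on all exosome arrays, and Rps27l exceeded it on 1 oxi exo and 3 norm exo arrays. The 13 members whose mean signal was below the mean background of the exosome arrays gave 0 calls. Of the 38 above it 36 were lower, where 25.1% of all 1203 such genes were, with a median log2 difference of -1.56 against -0.36. Of the members above background on all 8 exosome arrays, Rpl39 and Rpl7a were not called. Rpl7a, a protein of the large subunit, gave 1969, 1554, 1894 and 1834 in oxi exo, against 2824, 2387, 2232 and 2261 in norm exo. Its groups did not overlap, but the log2 difference was -0.42 ± 0.18 (adjusted p = 0.438) as deposited and 0.62 with quantile normalization.

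In the large subunit 18 of 26 genes were lower, and in the small subunit 18 of 24, with median log2 differences of -1.46 and -1.56. The large minus small difference of 0.10 was smaller than its SD of 0.18 over the 4 pairs, in which it was 0.01, -0.28, 0.06 and 0.13. Over the probe sets without suffix a, s or x it was -0.67. Of the 35 member probe sets without these suffixes, 25 had a mean below the exosome background, and 0 of those were called. Of the 24 genes with several member probe sets, all were called lower for 5 genes, some but not all for 16, none for 3, and 0 genes had probe sets called in opposite directions. Among all 107 probe sets, 63 of the 74 with a mean above background were lower and 0 of the 33 below it, where 1.7% of all probe sets were lower and 0.0311% higher. A further 110 probe sets that list a ribosomal protein beside other symbols were left out of the members, and 75 of them were lower and 0 higher.

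The size of this difference depended on the scaling. After quantile normalization the median of the 51 genes was -0.55, against -0.02 over all genes, and 7 genes were called lower, where 0.808% of all genes were lower and 0.291% higher. They were Rpl4, Rpl8, Rpl37a, Rplp0 and Rplp2 of the large subunit and Rps9 and Rps10 of the small subunit. After scaling to the spiked controls the median was -1.47 and 33 were lower, where 1.67% of all genes were lower and 0.0165% higher. The paired test named in the study's methods, run on linear signals, called 0 genes after Benjamini-Hochberg adjustment. At an unadjusted p under 0.05 it gave 38 members lower and 1 higher, where 6.34% of all genes were lower and 3.24% higher.

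Most of a list of 15 other genes, chosen because their mRNAs are known for a terminal oligopyrimidine start, were also lower in oxi exo. In the RefSeq starts used here 5 of the 10 with a listed start (50%) held such a run. Of the 15 genes 10 were lower, against 2.25% of all genes, and 0 higher, with a median log2 difference of -1.37. Among all 1203 genes with a mean above the exosome background 25.1% were lower, with a median of -0.36. With quantile normalization the median was -0.72, and 5 of them were called lower and 0 higher. Eef2, whose product drives translocation, fell by 2.10 on the log2 scale (adjusted p = 0.000156) and Eef1a1, which delivers aminoacyl-tRNA, by 1.72. Eif3f, a subunit of initiation factor eIF3, was below background on all oxi exo arrays and was at least 2.58-fold lower there, and Tpt1 and the poly(A)-binding protein gene Pabpc1 had -1.37 and -1.17. The genes not called were Npm1 (-0.90), Eif3e (-0.87), Eef1d (-0.78), Nap1l1 (-0.67) and Hnrnpa1 (-0.14).

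The same question was asked of the cells. There the core ribosomal protein transcripts were slightly lower under H2O2 on the deposited scale, a direction that other scalings did not keep, and a few members were higher. The members held 3.25%, 3.51%, 3.74% and 3.63% of the signal in oxi cell, against 3.84%, 3.85%, 4.11% and 4.05% in norm cell, so that all oxi cell arrays were below all norm cell arrays. By limma 26 of the 51 genes were lower, against 5.46% of all genes, and 4 were higher, against 6.42% of all genes. The median log2 difference was -0.23, against -0.09 over all genes. The lower genes lay between -0.35 and -0.19, and Fau, Rps24, Rpl41, Rps14 and Rpl38 were among those with the largest differences (-0.31, -0.31, -0.31, -0.29 and -0.28).

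These small decreases did not hold under other scalings. With quantile normalization 1 gene was lower (Rpl27a) and 3 were higher, where 4.61% of all genes were lower and 6.67% higher, and the median was -0.01. With the spiked controls 0 were lower and 8 higher, where 0.956% of all genes were lower and 20.5% higher, and the median was 0.05, against 0.19 over all genes. At an unadjusted p under 0.05 this last scaling gave 0 lower and 12 higher, where 595 of all 18193 genes were lower and 5216 higher. The methods' paired test called 0 members after adjustment, and at an unadjusted p under 0.05 it gave 34 lower and 4 higher, where 10.9% of all genes were lower and 9.98% higher. The spiked controls themselves were at 0.825 times their norm cell level in oxi cell, and background at 0.813 times. Without replicate 4 the counts were 4 lower and 2 higher, and without replicate 1 they were 16 lower and 4 higher.

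Of the 4 genes that were higher in oxi cell, Rps25, Rps27l and Rps6 kept an adjusted p under 0.05 as deposited, with quantile normalization and with the spiked controls. Rps25, a small subunit protein known for its part in internal initiation on viral RNAs, gave 562, 605, 519 and 502 in oxi cell, against 318, 290.5, 342 and 322 in norm cell. The groups were well separated, with a log2 difference of 0.78 ± 0.08 (adjusted p = 0.000234), a 1.72-fold higher signal in oxi cell. In exosomes Rps25 exceeded background on 1 array of each group. Rps27l, a paralog of Rps27 whose gene is a known p53 target, gave 2874, 2808, 3247 and 3312 in oxi cell, against 2545, 2441, 2376 and 2441 in norm cell. Its log2 difference was 0.32 ± 0.06 (adjusted p = 0.00714, lost without replicate 4), and all 3 of its probe sets were called higher. Rps6, the substrate of S6 kinase, gave 277, 276, 272 and 263 in oxi cell, against 213, 215, 215 and 217 in norm cell (log2 difference 0.34 ± 0.07, adjusted p = 0.0085). The probe sets of Rps25 and Rps6 were dim for members, whose median signal was 7028 to 7604 on the norm cell arrays. Whether they report the main transcripts of these genes was not tested. Rpl22l1, a paralog of the RNA-binding protein Rpl22, was higher by a log2 difference of 0.24 (adjusted p = 0.0169), a call that was lost without replicate 3 or 4.

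Of the 36 genes lower in oxi exo, 25 (69.4%) were also lower in oxi cell, which was 96.2% of the 26 genes lower in oxi cell. The 26th, Rpl7a, had a log2 difference of -0.24 in cells and was not called in exosomes. For reference, 36 of all 51 members were lower in oxi exo and 26 in oxi cell. The overlap rests on the deposited scale, since the lower genes in cells became 1 with quantile normalization and 0 with the spiked controls. Rps3 had probe sets called in opposite directions in cells, with log2 differences of -0.20 for the brighter and 0.48 for one of the others.

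The difference between the H2O2 change in exosomes and that in cells was tested directly on the 8 differences within pairs. The decrease was larger in exosomes, by a median log2 difference of -1.30 over the 51 genes, against 0.12 over all genes, and it was -1.02, -1.26, -0.81 and -1.89 in the 4 pairs. By limma 0 members were called in either direction, where 0.0% of all genes were, and at an unadjusted p under 0.05 the members gave 33 lower and 0 higher. With quantile normalization the median was -0.46, against -0.06 over all genes, 0 members were called, and 1 was lower and 0 higher at an unadjusted p under 0.05. A fit on all 16 arrays, chosen after the data were seen because it lets the expected variance follow the mean signal, called 30 lower and 0 higher, against 1.92% and 0.0495% of all genes. With a floor at background the counts were 37 lower and 2 higher, against 4.4% and 15.1% of all genes, and the methods' test on linear differences called 9 lower and 0 higher. The shares of all genes at an unadjusted p and by the methods' test are not given here, so those counts stand without a reference. In the 16-array fit the difference was -1.95 for Rpl4 (adjusted p = 0.00402) and -1.52 for Rps2 (adjusted p = 0.00384), and it was -0.18 for Rpl7a (adjusted p = 0.688) and -0.70 for Rpl27 (adjusted p = 0.145).

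The next comparison set the exosomes against the cells under the same condition. In norm exo against norm cell the members were split, with some transcripts at a higher signal in exosomes and most at a lower one. By limma 31 genes were lower, against 25.0% of all genes, and 9 were higher, against 53.2% of all genes, with a median log2 difference of -0.89 where the median of all genes was 1.67. Background was 15.8-fold higher in norm exo than in norm cell, and its part in that shift was not tested. Among genes with a mean above background 52.9% of 7490 were lower, with a median of -0.92, and 31 of 47 members were, with a median of -0.94. Quantile normalization gave 26 lower and 12 higher, against 24.7% and 19.3% of all genes, with a median of -0.46 where all genes had 0.11. The spiked controls gave 47 lower and 0 higher, against 55.2% and 2.22% of all genes, with a median of -4.91 where all genes had -2.35.

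Several genes were lower in norm exo under all 3 scalings. Rps10, with the exosome signals given above, had 9564, 10026, 10405 and 10577 in norm cell, a log2 difference of -2.21 ± 0.16 (adjusted p = 5.67e-06). Rpl27 of the large subunit gave 1425, 1369.8, 1032 and 1106 in norm exo, against 7779, 7576, 8472 and 8024 in norm cell, a 6.51-fold lower signal in norm exo. Rps9, which helps keep decoding accurate, had a log2 difference of -2.44, Rpl6 of -2.30, Rpl41 of -2.03 and Fau of -1.94. A pair of paralogs was also low. Rpl22l1 gave 166, 122, 182 and 127 in norm exo, all below background, against 1294, 1311, 1275 and 1201 in norm cell, which bounds the difference at no less than 4.93-fold. Rps27l gave 516, 233, 273 and 249 in norm exo, against 2545, 2441, 2376 and 2441 in norm cell (log2 difference -3.03 ± 0.22).

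At the other end of the range were transcripts whose signals in norm exo matched or exceeded those in norm cell on the deposited scale. Rpl4, at the norm exo signals given above, had 7799, 7596, 8348 and 8064 in norm cell, all lower than the norm exo arrays, with a log2 difference of 0.67 ± 0.15 (adjusted p = 0.00296) that was 0.90 with quantile normalization and -3.35 with the spiked controls. Rps28 had 9137, 9656, 10674 and 10501 in norm cell, a log2 difference of 0.70 ± 0.17 (adjusted p = 0.00442) that was 0.20 with quantile normalization and -3.32 with the spiked controls. Rpl39, the exit tunnel protein, gave 487, 599, 415 and 541 in norm exo, against 84.7, 111, 121 and 69.8 in norm cell, with a log2 difference of 2.42 (adjusted p = 7.27e-05) that turned to -1.60 with the spiked controls. Rpl27a and Rps27 were also called higher, with log2 differences of 1.32 and 1.50 that turned to -2.70 and -2.52 with the spiked controls. Rpl39, Rpl27a and Rps27 were given by dim probe sets, at norm cell means of 96.7, 323 and 69.5. The median member signal was 7028 to 7604 on the norm cell arrays. Whether these probe sets report the main transcripts was not tested. Rps27 exceeded background on 1 norm exo array, and its call was lost with quantile normalization (limma, adjusted p = 0.143). The other 4 genes called higher, Rps16, Rps4l, Rpl39l and Rpl3l, were below background on all norm exo arrays, at mean signals of 6.27, 7.91, 86.4 and 29.3 against 0.778, 1.19, 7.33 and 7.97 in norm cell, so no fold is given for them. The call of Rpl39l was lost without replicate 3 or 4, and that of Rpl3l without replicate 1.

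**Figure D3:**
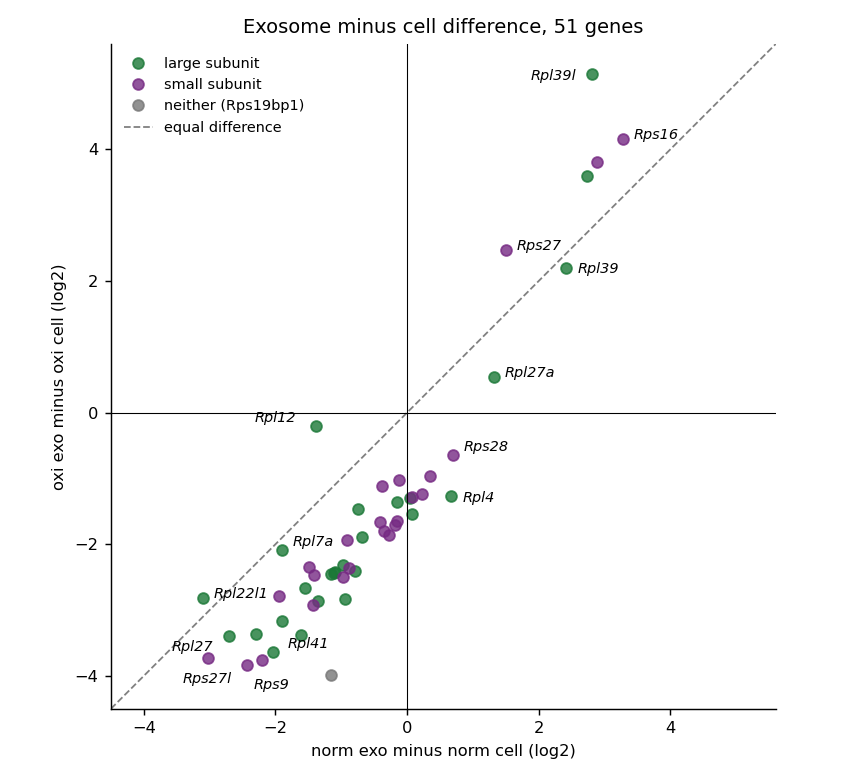
Log2 difference of exosomes minus cells for each of the 51 genes, norm exo minus norm cell on the horizontal axis and oxi exo minus oxi cell on the vertical axis, in green for the large subunit, purple for the small subunit and grey for Rps19bp1, with a dashed line where both are equal. Most genes lie below the line, and the genes keep a similar order along both axes.

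Under H2O2 the same contrast was wider. In oxi exo against oxi cell 43 genes were lower, against 26.7% of all genes, and 6 were higher, against 54.4% of all genes, with a median log2 difference of -1.93 where all genes had 1.93. Background was 21.3-fold higher in oxi exo than in oxi cell, and its part in the shift of all genes was not tested. The share among genes with a mean above background is not given for this comparison. Quantile normalization gave 31 lower and 4 higher, against 28.1% and 20.7% of all genes, and the spiked controls 47 lower and 0 higher, against 54.3% and 3.53% of all genes. Rps9, the gene with the largest called decrease of the small subunit, gave 447, 499.9, 394 and 246 in oxi exo, against 4857, 5391, 6294 and 5498 in oxi cell, a 14.3-fold lower signal in oxi exo, and its lowest oxi exo array was below background. Rps10 had a log2 difference of -3.75, Rps27l, above background on 1 oxi exo array, of -3.73, Rpl41 of -3.63, Rpl27 of -3.40, Rpl6 of -3.36 and Rps4x of -2.93. Rpl14 was called as well, but it was below the exosome background on all oxi exo arrays (106, 8.49, 4.64 and 11.0), against 145, 149, 169 and 146 in oxi cell, and no fold is given for it since that background lies above the cell signals.

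Rpl4, higher in norm exo than in norm cell, was lower in oxi exo than in oxi cell, where it gave 6685, 7431, 8123 and 7649.7, with a log2 difference of -1.27 ± 0.24 (adjusted p = 0.00107) that was 0.01 with quantile normalization. Rps28 turned likewise, at -0.64 ± 0.27 (adjusted p = 0.0489), a call lost when any 1 replicate number was left out. There were 30 genes lower in both conditions and 6 higher in both, Rpl39, Rps27 and the 4 genes below the exosome background. A further 13 genes were called lower under H2O2 and not in normal conditions, among them Rps18, Rps29, Rps2, Rps3a1, Rpl13a and Rpl38, and whether they differ between the conditions was tested only by the comparison of the H2O2 changes above. Across the 51 genes the differences in both conditions had a Pearson correlation of 0.92 and a Spearman correlation of 0.90, given as a description, since every point shares its probe set and the gap in background between exosome and cell arrays. The spread of the difference among genes was wide, with an SD of 2.12 under H2O2 and 1.51 in normal conditions, against 0.82 for the H2O2 change in exosomes and 0.32 for that in cells.

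**Figure D4:**
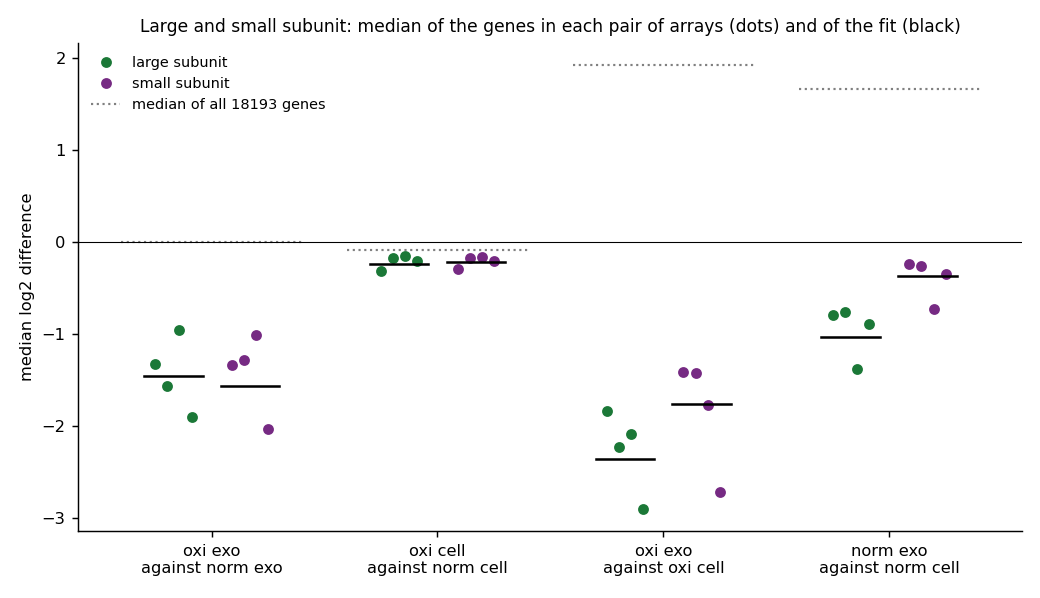
Median log2 difference of the large subunit (26 genes, green) and small subunit (24 genes, purple) in 4 comparisons, with a dot for each pair of equal replicate number, a black line for the median of the fit and a dotted line for the median of all genes. The subunits overlap in both H2O2 comparisons, and in both comparisons of exosomes with cells the large subunit lies lower, at -2.36 against -1.75 under H2O2 and -1.03 against -0.36 in normal conditions.

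The subunits parted in the comparisons of exosomes with cells. In norm exo against norm cell 18 of 26 large subunit genes were lower and 5 higher, and 12 of 24 small subunit genes were lower and 4 higher. Of all genes 25.0% were lower and 53.2% higher, and of the 7490 with a mean above background 52.9% were lower. The small subunit lay near that last share. Among the genes called higher, Rpl39l and Rpl3l of the large and Rps16 and Rps4l of the small subunit were below background on all norm exo arrays. The large minus small difference of the medians was -0.67 and was negative in all 4 pairs (-0.56, -0.50, -0.65 and -0.54). It was -0.28 with quantile normalization and -0.99 over the probe sets without suffix a, s or x. In oxi exo against oxi cell it was -0.61, with -0.42, -0.80, -0.32 and -0.18 in the pairs, but 0.06 over the probe sets without these suffixes. Of the 35 member probe sets without them, 17 had a mean below background in each of these comparisons. Within either subunit the genes varied more than the subunits differed, with quartiles of -1.60 and 0.00 for the large subunit and -1.41 and 0.11 for the small subunit in normal conditions.

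Probe sets of the same gene often disagreed in these comparisons. In norm exo against norm cell 5 of 24 genes with several member probe sets had them called in opposite directions (Rpl37a, Rpl41, Rps3, Rps4x and Rps18), and in oxi exo against oxi cell 8 did (Rpl35, Rpl41, Rps3, Rps4x, Rps6, Rps18, Rps20 and Rps24). For Rpl41, the probe set used here had a log2 difference of -2.03 in normal conditions while another of its 4 probe sets had 1.16. The part of shared probes and of background in these disagreements was not tested. Of the 15 other genes listed for a terminal oligopyrimidine start, 15 were lower in exosomes under H2O2 (median -3.14), against 26.7% of all genes, and 12 in normal conditions (median -2.23), against 25.0% of all genes. Among genes with a mean above background 52.9% of 7490 were lower in normal conditions, and the share of such genes under H2O2 is not given here. With quantile normalization 11 were lower and 0 higher under H2O2 (median -1.81), and 11 lower and 2 higher in normal conditions (median -0.90). In normal conditions Eef1a1 (0.31, adjusted p = 0.064), Eif4b (0.03) and Eef2 (-0.09) were not called.

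**Figure D5:**
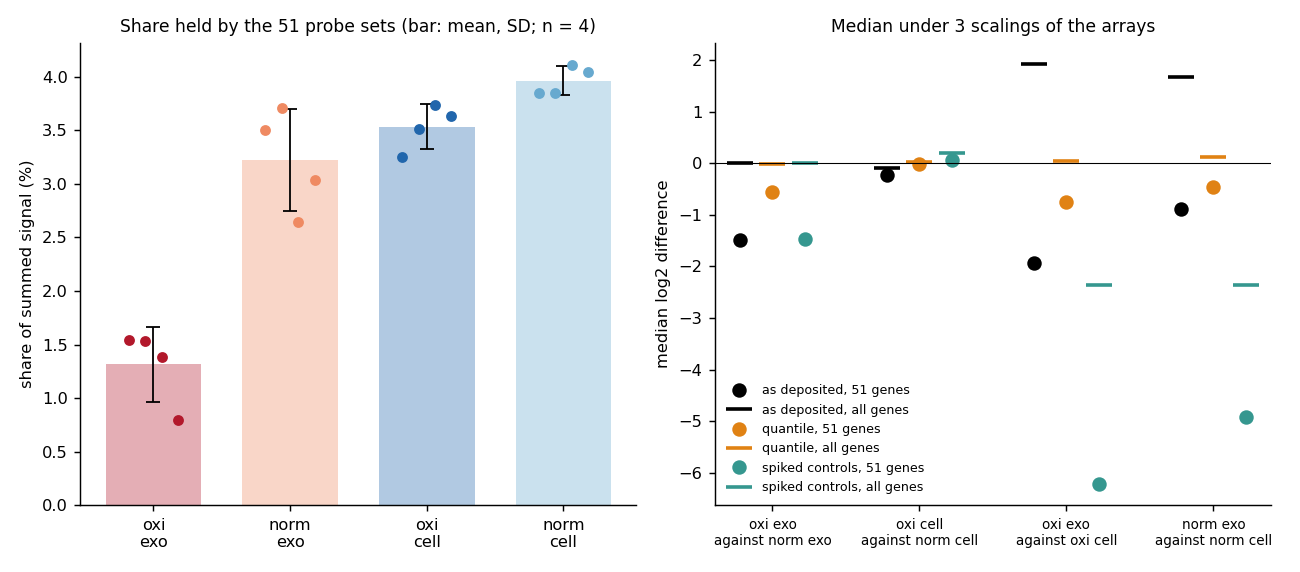
Left, share of the summed signal held by the 51 probe sets in oxi exo, norm exo, oxi cell and norm cell, as the mean of 4 arrays with its SD and a dot per array. Right, median log2 difference of the 51 genes (dots) and of all genes (dashes) as deposited, with quantile normalization and with the spiked controls. The share is 1.31% in oxi exo, 3.22% in norm exo, 3.53% in oxi cell and 3.96% in norm cell, and the median for oxi exo against norm exo is below 0 under all 3 scalings.

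Over the groups the members held 1.31% ± 0.351 of the summed signal in oxi exo, 3.22% ± 0.476 in norm exo, 3.53% ± 0.210 in oxi cell and 3.96% ± 0.136 in norm cell (SD, n = 4 each). The oxi exo group stood apart from all others, while the norm exo arrays at 3.50% and 3.71% lay within the range of oxi cell. This share is free of the scaling of the array, but it includes the raised background of the exosome arrays in its denominator.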

How the data were processed

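The authors made the deposited signal intensities with MAS5.0, in GCOS 1.2 per the labels' processing notes, and scaled each array to a mean of 100 after trimming 2% at each end. The array is named Mouse 430A 2.0 in the methods and 430 2.0 in the labels, and the deposited table has the probe sets of the second. No use was made of detection calls or saturation marks. Apart from 64 controls, 45037 probe sets were tested, of which 34945 carry 1 gene symbol, 932 several and 9160 none. Log2 signals were fitted with limma 3.58.1 (lmFit and trended eBayes under R 4.3.3) for the groups compared, with the replicate number as block after the paired test of the study's methods, and Benjamini-Hochberg adjustment over every probe set tested (threshold 0.05). All adjusted p are from limma. The difference between both H2O2 changes was fitted on the 8 differences within pairs. The members, gene lists and tests were chosen with earlier results of these data known. Genes named are, per comparison, the 4 of largest difference in each subunit among those called and changed alike in all 4 pairs, up to 6 called in the less common direction, the 3 of highest mean signal in each subunit, those of the role groups, those with opposite probe sets and the listed genes outside the ribosome. Rpl7a, Rpl27 under H2O2 and the quartiles and starts shown were chosen after the values were seen. A gene below background on every array of a group got a bound, that background taken as its level. Of 18 listed genes with a pyrimidine start or in the ribosome 15 had a single-symbol probe set. Alternatives were no block, quantile normalization, scaling to 9 spiked probe sets, a filter at the median signal, the methods' paired test on linear signals, signals floored at background, other probe sets per gene and each replicate number left out. The fits were tested on simulated data. Single values were compared by exact permutation tests (smallest p 0.0286 for 4 against 4). The number of arrays limits the precision. The other steps ran in Python 3.11.15 (scipy 1.17.1, numpy 2.4.6, matplotlib 3.10.9, pandas 2.3.3).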

Additional observations from a re-analysis of the deposited data

Results flagged for a closer look

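Of 114 groups of 4 arrays examined, 6 had 1 array far from the other 3, where chance gives about 1 in 20. In Rplp0 the lowest oxi exo array was at 901.5 and the lowest norm exo array at 4633, and in Rpl8 the lowest norm exo array was at 2690.2. In Rps2 the lowest oxi cell array was at 6188. In Rpl14 the highest oxi cell array was at 169 and the lowest norm cell array at 114.

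The array's control probe sets for 18S ribosomal RNA, the RNA of the small subunit, lie outside the comparisons above and were brighter in exosomes than in cells on the deposited scale. The middle probe set averaged 8348 in oxi exo and 10980.2 in norm exo, against 73.3 in oxi cell and 87.0 in norm cell, ratios of 114 for oxi exo over oxi cell and 126 for norm exo over norm cell. The 3′ probe set averaged 1745 in oxi exo and 2239.9 in norm exo, against 112 in oxi cell and 126 in norm cell, ratios of 15.6 for oxi exo over oxi cell and 17.8 for norm exo over norm cell. The 5′ probe set averaged 1135 in oxi exo and 1234 in norm exo, against 38.9 in oxi cell and 48.5 in norm cell, ratios of 29.2 for oxi exo over oxi cell and 25.4 for norm exo over norm cell. Each exosome group was above the cells of its condition on every array (exact two-sided permutation test, p = 0.0286, the smallest possible with 4 against 4). Background was likewise higher on every exosome array than on any cell array, so this test cannot tell 18S signal from background. Oxi exo against norm exo gave ratios of 0.779, 0.920 and 0.760 for the 3′, 5′ and middle probe sets, with p of 0.2, 0.543 and 0.143 by the same exact test. Background was 21.3-fold higher in oxi exo than in oxi cell and 15.8-fold higher in norm exo than in norm cell, and its part in these ratios was not tested. The spiked controls were 19.6-fold and 16.2-fold brighter in the same comparisons. Under H2O2 the 3′ ratio of 15.6 was below both the background and the spiked control ratio.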

How the results depend on the processing

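The 36 genes lower in oxi exo became 33 to 36 when a replicate number was left out. Their number was 7 with quantile normalization, 0 by the methods' test after adjustment (38 lower and 1 higher unadjusted, as the methods use it), 7 of the 27 genes with a probe set without suffix a, s or x and 21 when each gene was given by its dimmest probe set. In oxi cell the 26 lower genes became 1 with quantile normalization, 0 with the spiked controls, 0 by the methods' test after adjustment (34 lower and 4 higher unadjusted), 7 without suffixes, 15 over the dimmest probe sets and 4 to 20 with a replicate number left out. The 4 higher genes became 8 with the spiked controls, 0 by the methods' test after adjustment and 2 to 4 with a number left out. In norm exo against norm cell the 31 lower genes became 47 with the spiked controls and 11 without suffixes, and the 9 higher 0 with the spiked controls, 5 with the filter and 3 by the methods' test. In oxi exo against oxi cell the 43 lower became 11 without suffixes, and the 6 higher 0 with the spiked controls, 2 with the filter, 3 by the methods' test, 10 without suffixes and 14 over the dimmest probe sets. For the difference of the H2O2 changes the 0 lower became 37 with the floor, 9 by the methods' test and 30 in the added 16-array fit, and the 0 higher became 2 with the floor. Without suffixes and over the dimmest probe sets fewer or other probe sets were counted. The cause of the other changes was not tested.

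Large minus small subunit was -0.67 without suffixes in oxi exo against norm exo. In oxi cell against norm cell, where it was -0.02, it was -0.065 without suffixes, 0.069 over the dimmest probe sets and -0.017 to 0.0076 with a number left out. It was -0.28 with quantile normalization and -0.99 without suffixes in norm exo against norm cell, 0.057 without suffixes and -1.11 over the dimmest probe sets in oxi exo against oxi cell, and -1.58 and -0.0295 for the difference of the H2O2 changes.

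Genes named for their size of change, direction or signal that were called under either setting turned their direction as follows. In oxi cell against norm cell, with the spiked controls, Rpl4 was at 0.19, Rps18 at 0.064, Rps29 at 0.05, Rpl13a at 0.041, Rps28 at 0.036, Rps10 at 0.023 and Rpl22 at 0.0071, and with quantile normalization Rps29 at 0.038, Rps18 at 0.028 and Rpl13a at 0.0026. Rpl4, called under neither, was at 0.13 with quantile normalization there, and Rpl7a, not called as deposited, was at 0.62 in oxi exo against norm exo. In norm exo against norm cell, with the spiked controls, Rpl13a was at -3.97, Rps18 at -3.95, Rps29 at -3.67, Rpl4 at -3.35, Rps28 at -3.32, Rps27 at -2.52, Rpl39 at -1.60, Rpl3l at -1.29, Rpl39l at -1.22, Rps4l at -1.14 and Rps16 at -0.74, and with quantile normalization Rps29 at -0.85, Rps4l at -0.57, Rpl13a and Rps18 at -0.50, Rps16 at -0.27 and Rpl3l at -0.21. In oxi exo against oxi cell, Rpl4 was at 0.0051 and Rps4l at -0.15 with quantile normalization. With the spiked controls Rpl39 was at -2.08, Rps27 at -1.81, Rpl3l at -0.70, Rps4l at -0.49 and Rps16 at -0.13 there. Rpl14 was at 0.90 with the floor, a sign set by the floor, since the exosome background lies above its oxi cell signals.

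Without the replicate block 36 genes were lower in oxi exo against norm exo, 20 in oxi cell against norm cell, 32 in norm exo against norm cell and 43 in oxi exo against oxi cell. Deviations of arrays with the same number correlated at -0.052 to 0.048 over 13746 probe sets in the 4 comparisons. Arrays of equal number are thus not shown to be matched, though this cannot exclude that they were. Signals near background limit the exosome results, where 10 of the members were below it on all arrays of each group.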
